A study of Mus musculus with 15 samples.

Results

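Copying, reading and keeping mitochondrial nucleic acid depends on a small set of proteins encoded in the nucleus, and 10 of their genes were followed here in the mouse ovary. They were picked by name from the 24656 genes of the deposited expression table: Tfam, Polrmt, Tfb2m, Tfb1m, Polg, Twnk, Lrpprc, Slirp, Pnpt1 and Supv3l1. All 10 were found and all 10 passed the filter on low values, as did 17569 genes in all. RNA carrying a poly(A) tail was sequenced from 1 ovary of each of 15 female UM-HET3 mice, a genetically heterogeneous stock in which every mouse has its own genotype. Of these, 5 were 12 months old and had received canagliflozin, an SGLT2 inhibitor used against diabetes, from 6 months of age, 5 were untreated at 12 months and 5 were untreated at 6 months. Dose and route of the drug were not given in the labels used here.

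The mitochondrial genome is a small circle that encodes subunits of the respiratory chain, ribosomal RNAs and transfer RNAs. TFAM packages it and bends its promoters, TFB2M melts the promoter, and POLRMT is the RNA polymerase, while POLG and the helicase Twinkle (Twnk) copy the DNA. TFB1M methylates the small ribosomal RNA. LRPPRC and SLIRP form a complex that binds the mitochondrial mRNAs and keeps them from decay, and the exonuclease PNPase (Pnpt1) with the helicase SUV3 (Supv3l1) degrades RNA in the matrix. Oocytes hold very many mitochondrial genomes, and luteal cells make the first step of steroid hormones inside mitochondria.

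The deposited values, here called normalised reads, are read numbers that the authors scaled by a size factor for each library. Depth, recovered from the smallest steps in the values, ran from 8.47 to 13.05 M reads in canagliflozin libraries, 11.3 to 13.1 M in 12-month controls and 11.8 to 13.6 M in 6-month controls. Any one of the 10 genes had between 43 and 1606 recovered reads in a library. Of 11 oocyte, 8 granulosa and 7 luteal markers, none was at 0 in all libraries of any group. In normalised reads the luteal sum was 124839 to 368753 in canagliflozin libraries, 167803 to 273880 in 12-month controls and 190392 to 267992 in 6-month controls. In the same order the granulosa sum was 34001 to 75376, 33724 to 68819 and 20190 to 42248, and the oocyte sum 1348 to 2715, 2015 to 3162 and 1959 to 3296. The ranges overlap between groups, and the part of these sums in the values below was not tested. The share of all reads that came from the 13 mitochondrially encoded mRNAs was 8.97, 7.03, 6.98, 8.01 and 4.67% in canagliflozin libraries. It was 3.58 to 4.26% in 12-month controls and 2.63 to 3.10% in 6-month controls, so that the 3 groups did not overlap.

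Several of the 10 genes have promoters of a known type. GABP, a factor of the ETS family, and NRF1 are described, mostly from human cells, as activators of nuclear genes for mitochondrial transcription. The ETS core CCGGAAG was searched on both strands, from 250 bases before to 50 bases after each transcription start in the RefSeq promoter table (build GRCm38.p6), where all 10 genes were found. It was present for 5 of the 10 (Slirp, Twnk, Tfam, Polg and Polrmt), against 8.86% of all 32851 promoter windows. The former counts genes and the latter windows, of expressed and silent genes alike. The 10 genes have 11 windows, and Twnk holds the core at the second of its listed starts only. The longer NRF1 motif, held by 4.60% of windows, was found for Polrmt only, as a pair of matches that overlap each other. The YY1 motif AAGATGGCG, held by 1.40%, was found for Slirp only, and the CRE TGACGTCA, held by 1.79%, for none. The 250 bases before the start are printed for 3 of the 5 genes with an ETS core, Slirp (chr12:87443646-87443895, plus strand), the second listed start of Twnk (chr19:45006308-45006557, plus strand) and Tfam (chr10:71238045-71238294, minus strand), with each ETS core, read on either strand, in capitals. They are of the reference strain, not of these mice.
Slirp: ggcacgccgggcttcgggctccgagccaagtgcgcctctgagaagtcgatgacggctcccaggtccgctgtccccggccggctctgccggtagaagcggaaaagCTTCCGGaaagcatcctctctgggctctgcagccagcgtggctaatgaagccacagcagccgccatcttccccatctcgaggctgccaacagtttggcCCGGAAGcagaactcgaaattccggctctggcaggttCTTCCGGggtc
Twnk: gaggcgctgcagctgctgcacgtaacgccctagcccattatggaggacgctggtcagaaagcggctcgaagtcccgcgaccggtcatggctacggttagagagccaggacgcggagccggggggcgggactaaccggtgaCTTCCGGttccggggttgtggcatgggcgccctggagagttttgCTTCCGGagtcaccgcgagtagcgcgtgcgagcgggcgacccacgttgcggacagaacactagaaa
Tfam: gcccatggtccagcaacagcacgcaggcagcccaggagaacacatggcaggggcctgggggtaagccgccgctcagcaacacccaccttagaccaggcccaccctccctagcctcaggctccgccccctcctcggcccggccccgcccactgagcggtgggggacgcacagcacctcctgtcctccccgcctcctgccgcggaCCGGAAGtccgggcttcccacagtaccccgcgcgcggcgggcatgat
Slirp carries 3 ETS cores in this window, at bases -146, -48 and -11 from the start, Twnk carries 2, at -110 and -66, and Tfam 1, at -47. A match is a run of letters and says nothing of binding in these ovaries.

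Levels per kilobase can be set side by side for the 5 factors with a single annotated coding transcript. In untreated ovaries at 12 months the mean was 147 ± 30.1 normalised reads per kilobase for Lrpprc, 133 ± 23.5 for Pnpt1, 126 ± 6.11 for Tfb2m, 99.7 ± 7.03 for Supv3l1 and 51.3 ± 10.1 for Tfb1m (SD, n = 5). These values of Lrpprc, Pnpt1 and Tfb2m differ by less than the SD of Lrpprc, and Tfb1m, the rRNA methyltransferase, lies lowest of the 5. The other 5 are left out of the order, because which of their transcripts is expressed is not known: the coding transcripts run from 335 to 2701 bases for Slirp, 472 to 4167 for Tfam, 149 to 7837 for Polg, 1287 to 3755 for Polrmt and 2195 to 3488 for Twnk. Within a group the coefficient of variation of a factor ran from 4.36 to 26.9% with a median of 9.82%.

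The first question is what canagliflozin did to these factors at 12 months. None of the 10 passed the test: 0 reached an adjusted p of 0.05 in limma over all 17569 genes, against 0.00569% of all genes (1 gene). That count over all genes is unsteady: it was 9 in edgeR and 63 in DESeq2 on the recovered reads, 37 without canagliflozin replicate 5, 2 without 12-month control replicate 3, and 0 without any one of the other 13 libraries. Here and below, a call means a Benjamini-Hochberg adjusted p under 0.05 in that fit. The median log2 fold change was 0.01 over the 10 and -0.00 over all genes, with 6 of the 10 above 0 and 4 below, and 49.6% of all genes above 0. At an unadjusted p under 0.05 there was 1 of the 10, Slirp, against 9.2% of all genes, and edgeR and DESeq2 on the recovered reads also called 0 of the 10. No factor had groups that stood apart, against 1.05% of all genes (0.586% higher, 0.467% lower). The 13 mitochondrially encoded mRNAs in the same libraries were all above 0 (median 0.91 on the log2 scale, 1 call). These are bulk libraries, in which a change in RNA per cell and a change in the share of a cell type cannot be told apart.

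**Figure D1:**
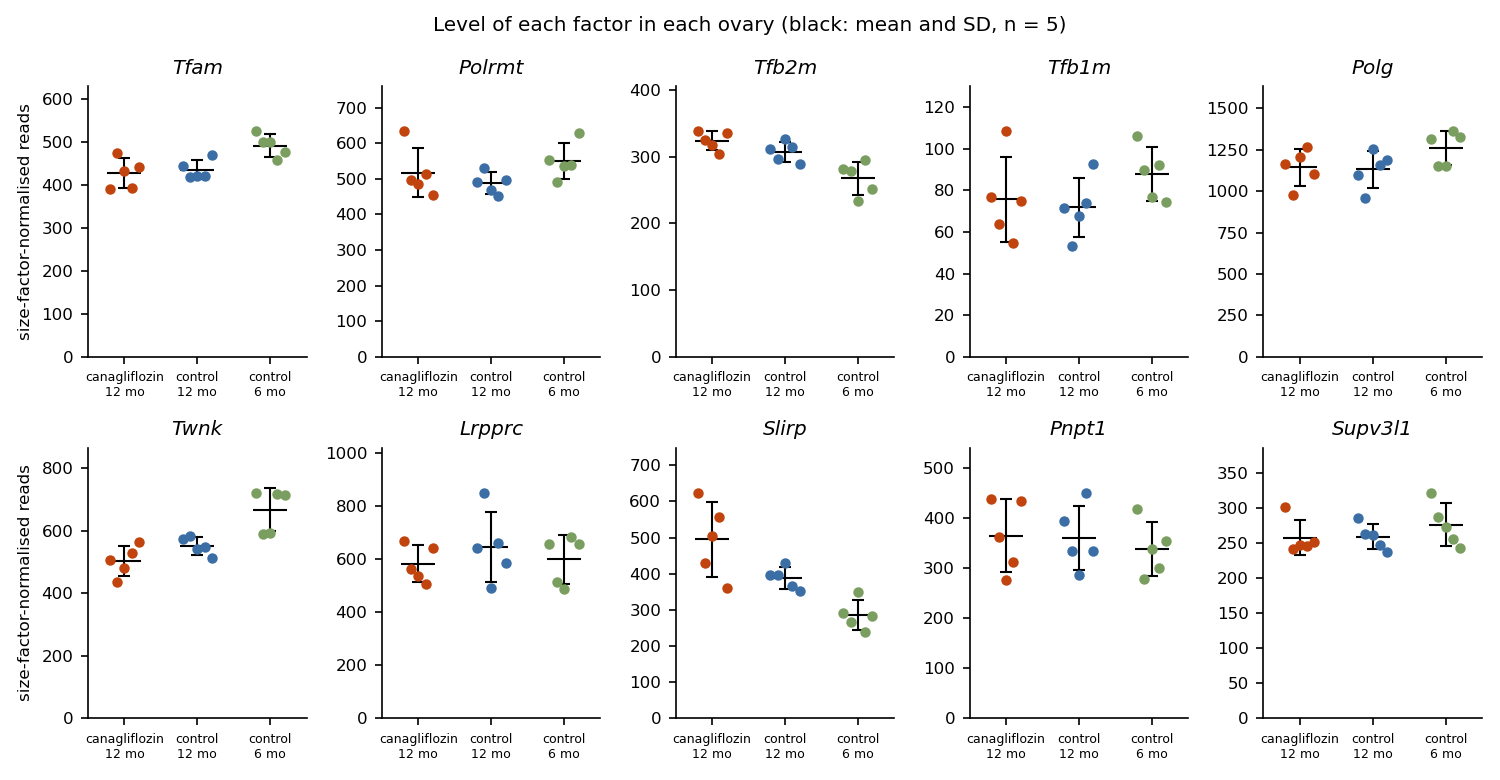
Normalised reads (reads divided by a size factor, linear axis from 0) of the 10 factors in each ovary, with canagliflozin at 12 months, control at 12 months and control at 6 months from left to right. Black marks are the mean and SD of 5 mice. Slirp and Twnk at 6 months lie apart from both 12-month groups, Slirp below and Twnk above.

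The 3 initiation factors were close between canagliflozin and control. Tfam, the packaging protein, had 392, 475, 434, 395 and 441 normalised reads in canagliflozin ovaries, against 446, 418, 422, 423 and 469.8 in 12-month controls. The canagliflozin values bracket the control values on both sides. The log2 fold change was -0.03 (SE 0.08, adjusted p = 0.914, limma), a fold of 0.979 with a 95% interval from 0.875 to 1.10. Polrmt, the polymerase, averaged 517 ± 69.1 in canagliflozin ovaries and 488 ± 30.3 in controls (SD, n = 5 each), and Tfb2m 324 ± 14.1 in canagliflozin ovaries and 307 ± 14.96 in controls. Both had a log2 fold change of 0.08, with intervals of the fold from 0.916 to 1.21 for Polrmt and from 0.932 to 1.19 for Tfb2m. Tfb1m, with the fewest reads of the 10, averaged 75.8 ± 20.4 in canagliflozin ovaries and 71.9 ± 14.2 in controls. Its interval was wider, from 0.788 to 1.38.

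The replication genes did not pass either. Polg, the catalytic subunit of the DNA polymerase, averaged 1143 ± 110 in canagliflozin ovaries and 1132 ± 113 in controls, a log2 fold change of 0.01. Twnk, the helicase, had 507, 435, 482, 530.3 and 563 normalised reads in canagliflozin ovaries, against 574, 582, 542, 548 and 512 in controls. In 3 of the 5 canagliflozin ovaries Twnk was below the lowest control, and the other two lay within the control range. The log2 fold change was -0.13 (SE 0.09, adjusted p = 0.650, limma).

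The partners that hold mitochondrial mRNAs gave values on opposite sides of 0. Slirp had 624, 429, 504, 557 and 360.3 normalised reads in canagliflozin ovaries, against 396, 398, 429, 366 and 353 in 12-month controls. Canagliflozin replicates 1, 3 and 4 were above all controls, replicate 2 was level with the highest control and replicate 5 lay inside the control range. The means were 495 ± 104 in canagliflozin ovaries and 388 ± 29.5 in controls, with a log2 fold change of 0.33 (SE 0.14, adjusted p = 0.511, limma, and 0.0297 before adjustment). The interval of the fold, 1.03 to 1.53, is for Slirp taken alone. Lrpprc had 667, 562, 536, 508 and 642 in canagliflozin ovaries, against 643, 849.9, 490.1, 660.4 and 585 in controls. The groups overlap over most of their range, and control replicate 2 is the highest of all 15 libraries. Its log2 fold change was -0.13 (SE 0.14, adjusted p = 0.769, limma).

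For the degradation pair the means of both groups nearly coincide. Pnpt1 averaged 365 ± 72.4 in canagliflozin ovaries and 361 ± 63.5 in controls, and Supv3l1 258 ± 24.9 in canagliflozin ovaries and 260 ± 18.3 in controls, with log2 fold changes of 0.01 and -0.01. The 95% interval of the fold was 0.805 to 1.26 for Pnpt1 and 0.858 to 1.15 for Supv3l1.

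Set against the mRNAs they serve, the 10 factors were summed in CPM of the recovered reads. The sum was 377 ± 24.9 in canagliflozin ovaries, 402 ± 7.51 in 12-month controls and 415 ± 24.5 in 6-month controls (SD, n = 5 each). CPM divides by all reads, of which the mitochondrially encoded mRNAs made up a mean of 7.13, 4.00 and 2.90%, in the same order. A higher share of them lowers the CPM of all other genes, and how much of the difference between the sums comes from this was not tested. In normalised reads the median log2 fold change over the 10 was 0.01 for canagliflozin against 12-month controls and -0.12 for 12 against 6 months. For each read of the 10 factors there were 219, 203, 187, 221 and 119 reads of mitochondrially encoded mRNA in canagliflozin ovaries. The same ratio was 101, 102, 107, 99.1 and 89.4 in 12-month controls and 69.4, 76.9, 79.8, 63.7 and 61.0 in 6-month controls. The 3 groups did not overlap, with medians of 203, 101 and 69.4, and canagliflozin replicate 5 was the nearest to the controls. The mitochondrially encoded share alone already kept the 3 groups apart. Taken factor by factor, the ratio overlapped between 12-month and 6-month controls for Slirp, Tfb2m, Tfb1m, Lrpprc and Pnpt1, and not for the other factors. Per read of Slirp it was 1139 to 1271 in 12-month controls and 1035 to 1316 in 6-month controls. Between canagliflozin and 12-month controls it overlapped only for Tfb1m, Lrpprc and Pnpt1. The ratio is a description, and no test is given for a sum over chosen genes. Reads were selected by poly(A) tail, so the level of tailing and the level of RNA cannot be told apart in the upper term of the ratio.

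**Figure D2:**
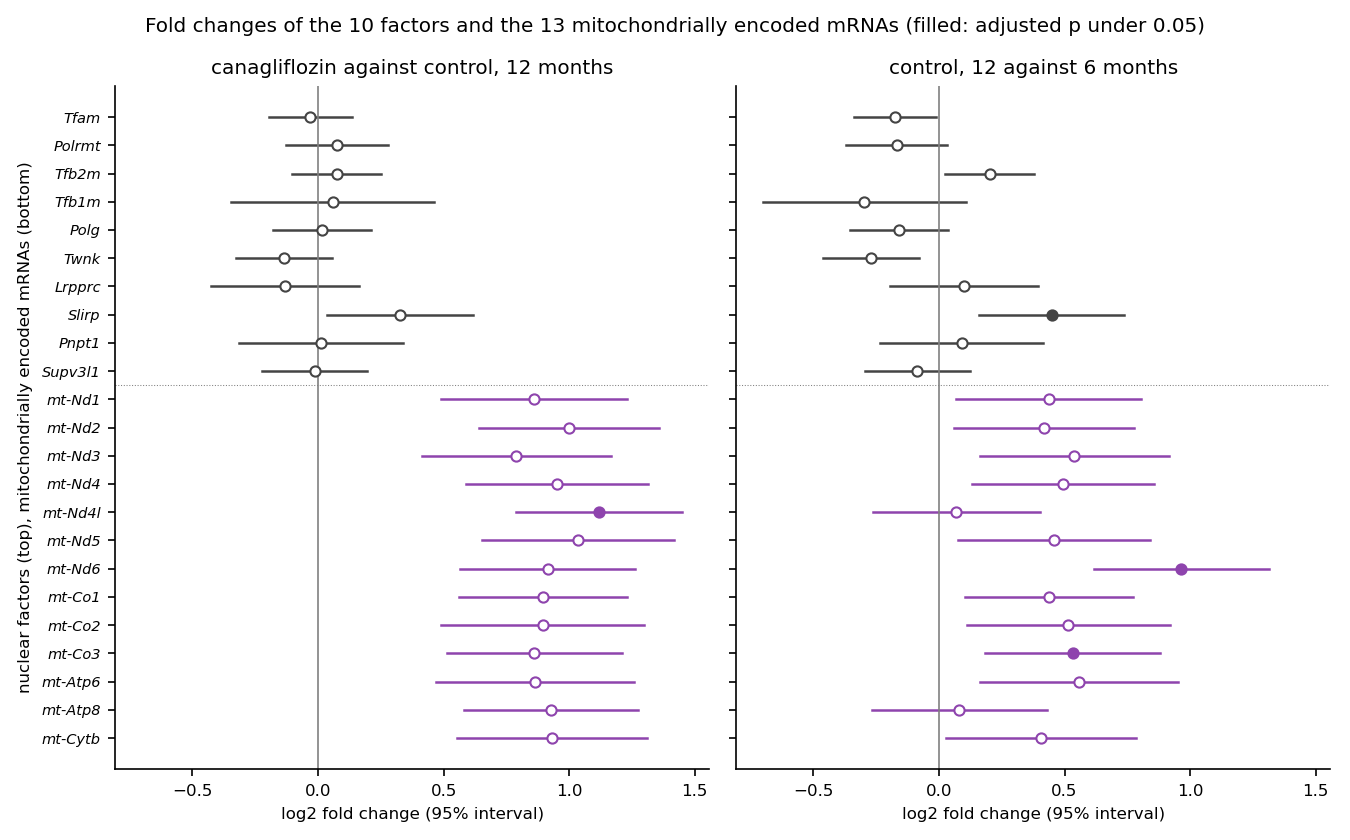
Log2 fold change with its 95% interval (limma) of the 10 nuclear factors, above the dotted line, and of the 13 mitochondrially encoded mRNAs, below it, for canagliflozin against control at 12 months (left) and for control at 12 against 6 months (right). Filled points passed an adjusted p of 0.05. On the left the 10 factors lie between -0.13 and 0.33 and the 13 mRNAs between 0.79 and 1.12.

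The second question is how these factors differ between untreated ovaries of 12 and of 6 months. Slirp rose and was the only one of the 10 to pass, against 12.4% of all genes (5.4% higher, 7.01% lower), a share near that background. Slirp had 396, 398, 429, 366 and 353 normalised reads at 12 months, against 292, 266, 349.7, 239 and 283 at 6 months. Every 12-month ovary was above every 6-month ovary, but 12-month replicate 5 and 6-month replicate 3 are close. The log2 fold change was 0.45 (SE 0.14, adjusted p = 0.0413, limma), a fold of 1.36 with an interval from 1.12 to 1.67. The call does not hold when any one of 9 libraries is left out (12-month control replicates 1 to 4, 6-month control replicates 1, 2, 4 and 5, and canagliflozin replicate 3), with adjusted p between 0.0506 and 0.0962. It also ends when each library is corrected for its trends with transcript length and GC content, where the log2 fold change was 0.35 with an adjusted p of 0.155, and 0.23 (adjusted p = 0.227) when lengths are of the median coding transcript in place of the principal one. With no filter on low values it just missed (adjusted p = 0.0515).

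Twnk stood apart in the other direction without passing. It had 574, 582, 542, 548 and 512 normalised reads at 12 months, against 722, 591, 593, 718 and 715 at 6 months. All 5 of the 12-month ovaries were below all 5 of the 6-month ovaries, by a small margin to 6-month replicates 2 and 3. The log2 fold change was -0.27 (SE 0.09, adjusted p = 0.0593, limma), and it passed in DESeq2 on the recovered reads (adjusted p = 0.0251), with a filter of 50 (0.0486), with only these 2 groups fitted (0.0494), and without 6-month control replicate 3 (0.0481) or canagliflozin replicate 2 (0.0436). After the length and GC correction its log2 fold change was -0.09 (adjusted p = 0.544). Groups that did not overlap were thus found for 2 of the 10 factors, against 13.7% of all genes (5.63% higher, 8.07% lower).

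Of the initiation factors at 12 against 6 months, Tfam averaged 436 ± 22.0 normalised reads at 12 months and 493 ± 26.1 at 6 months, Polrmt 488 ± 30.3 at 12 months and 549.7 ± 50.5 at 6 months, and Tfb2m 307 ± 14.96 at 12 months and 268 ± 24.9 at 6 months. The log2 fold changes were -0.18 for Tfam (adjusted p = 0.150), -0.17 for Polrmt (0.270) and 0.20 for Tfb2m (0.129), none of them a call. With the length and GC correction by the principal transcript Tfam did not pass, and 0 of the 10 factors did. With the correction by the median coding transcript, which for Tfam has 779 bases against 4167 for the principal one, Tfam passed at -0.37 (adjusted p = 0.00616, limma). Tfb1m and Polg gave -0.30 and -0.16, Lrpprc 0.10, Pnpt1 0.09 and Supv3l1 -0.09, with adjusted p from 0.288 to 0.750. The median over the 10 was -0.12 and over all genes 0.00, with 4 of the 10 above 0, against 50.5% of all genes. An unadjusted p under 0.05 was found for 4 of the 10, against 27.4%. Libraries of the 2 ages also differ in a feature that runs over all genes. The median deviation of the fifth of genes with the highest GC content, less that of the lowest, was -0.22 to -0.02 (log2) in 12-month controls and 0.11 to 0.20 in 6-month controls, without overlap, and the corrected values above are those with this trend taken out. Summed B and plasma cell markers were 177 to 528 normalised reads in 12-month controls and 36.0 to 45.8 in 6-month controls, and their part in these values was not tested.

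The third comparison sets canagliflozin ovaries at 12 months against untreated ovaries at 6 months. It shares libraries with both others and joins drug and age, so its values are given only beside theirs. Slirp, Tfb2m and Twnk passed, 3 of the 10 against 28.4% of all genes (13.5% higher, 14.9% lower), again near the background. Slirp rose by 0.77 on the log2 scale (SE 0.14, adjusted p = 0.000820, limma), beside 0.45 for age and 0.33 for the drug. Every canagliflozin ovary, with 360.3 to 624, was above every 6-month ovary, with 239 to 349.7. This call held with the length and GC correction, at 0.73 (adjusted p = 0.00287), and at 0.49 (adjusted p = 0.00576) with the median coding transcript. Summed macrophage markers were 552 to 954 normalised reads in canagliflozin ovaries and 1240 to 1754 at 6 months, beside 482 to 1385 in 12-month controls. Summed B and plasma cell markers were 299 to 502 in canagliflozin ovaries and 36.0 to 45.8 at 6 months. Neither sum overlaps between canagliflozin and 6 months, and their part in the values of the third comparison was not tested.

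Tfb2m, which opens the promoter for the polymerase, had 338, 325, 318, 303 and 335 normalised reads in canagliflozin ovaries, against 282, 278, 234, 295 and 251 at 6 months. The groups do not overlap, and the lowest canagliflozin ovary lies just above the highest 6-month ovary. The log2 fold change was 0.28 (SE 0.08, adjusted p = 0.0214, limma), beside 0.20 for age and 0.08 for the drug. Twnk fell to 504 ± 48.6 in canagliflozin ovaries, against 668 ± 69.1 at 6 months, with every canagliflozin ovary below every 6-month ovary. Its log2 fold change was -0.41 (SE 0.09, adjusted p = 0.00358, limma), beside -0.27 for age and -0.13 for the drug. With the length and GC correction both calls end, at 0.18 for Tfb2m (adjusted p = 0.105) and -0.19 for Twnk (0.0990). With the median coding transcript Tfb2m again did not pass, at 0.20 (adjusted p = 0.0790), and Twnk did, at -0.32 (0.0134). The Tfb2m call also ends with edgeR on the 12 libraries where reads are recovered most surely (adjusted p = 0.0775), and without 6-month control replicate 3 (adjusted p = 0.0571) or 5 (0.0522).

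Tfam gave a log2 fold change of -0.21 in the third comparison (adjusted p = 0.0556), passing in DESeq2 (0.0356), with a filter of 50 (0.0453), with mitochondrial genes left out of the scaling (0.0310) and without canagliflozin replicate 2 (0.0266). With the length and GC correction by the principal transcript Tfam did not pass. With the median coding transcript it passed at -0.40 (adjusted p = 0.00121, limma). The other 6 factors lay between -0.24 and 0.10. Groups without overlap were found for Slirp, Tfb2m and Twnk, against 18.5% of all genes (8.05% higher, 10.4% lower). Of the 10, 3 were above 0, against 50.8% of all genes, and 4 had an unadjusted p under 0.05, against 40.5%.

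Several of these genes share sequence with others, which matters because it is not stated whether reads were counted by strand. Slirp overlaps exons of Snw1, on the opposite strand, by 2914 bases, and Twnk overlaps Mrpl43 by 507. Snw1, a splicing factor, averaged 907 ± 142 normalised reads in canagliflozin ovaries, 989 ± 48.0 in 12-month controls and 1169 ± 28.9 in 6-month controls, an order opposite to that of Slirp. Mrpl43, a mitochondrial ribosomal protein, averaged 598 ± 34.1 in canagliflozin ovaries, 510 ± 76.8 in 12-month controls and 480 ± 59.4 in 6-month controls, opposite to Twnk. Alkbh1, which overlaps Slirp by 122 bases, averaged 417 ± 102 in canagliflozin ovaries, 418 ± 54.3 in 12-month controls and 336 ± 37.8 in 6-month controls. Tfb2m matches the predicted gene Gm1818 over 1187 bases at 99.3% identity, so reads could be split between them. Gm1818 averaged 64.9 ± 15.9 in canagliflozin ovaries, 80.3 ± 18.7 in 12-month controls and 95.1 ± 10.9 in 6-month controls. Polg overlaps Fanci by 921 bases, Supv3l1 overlaps 4930507D05Rik by 250 and Tfb1m overlaps Tiam2 by 142. Tiam2 averaged 122 ± 24.4 in canagliflozin ovaries, 138 ± 43.0 in 12-month controls and 195 ± 30.9 in 6-month controls, highest at 6 months as Tfb1m is. For canagliflozin against 6 months, Snw1 (log2 fold change -0.38, adjusted p = 0.00656), Tiam2 (-0.68, 0.0213), Gm1818 (-0.57, 0.0384) and Mrpl43 (0.32, 0.0356) passed in limma.

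Whether the RNAs of proteins that work as partners vary together between mice was looked at in 6 pairs. Of these, taken over 15 ovaries after each group's mean was removed from log2(value + 1), none had an adjusted p under 0.05, and none had an unadjusted p under 0.05. Lrpprc and Slirp, which form a complex, gave a Pearson r of -0.26 (permutation p = 0.304, adjusted over the 6 pairs 0.455) and a Spearman rho of -0.24 (p = 0.391, adjusted 0.554). Polg and Twnk gave r 0.40 (p = 0.157) and rho 0.29 (p = 0.314), and Pnpt1 and Supv3l1 gave r 0.38 (p = 0.199) and rho 0.22 (p = 0.462), by permutation. Tfam and Polrmt gave r -0.42 (permutation p = 0.213) and rho -0.34 (p = 0.274), Tfam and Tfb2m r -0.12 (permutation p = 0.674) and rho -0.03 (p = 0.934), and Polrmt and Tfb2m r -0.18 (permutation p = 0.556) and rho -0.22 (p = 0.449). All adjusted values lay between 0.427 and 0.934. Without the 2 ovaries farthest from the median of the first gene, r was -0.28 for Lrpprc and Slirp, 0.43 for Polg and Twnk, 0.47 for Pnpt1 and Supv3l1, -0.22 for Tfam and Polrmt, -0.19 for Tfam and Tfb2m and -0.33 for Polrmt and Tfb2m.

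**Figure D3:**
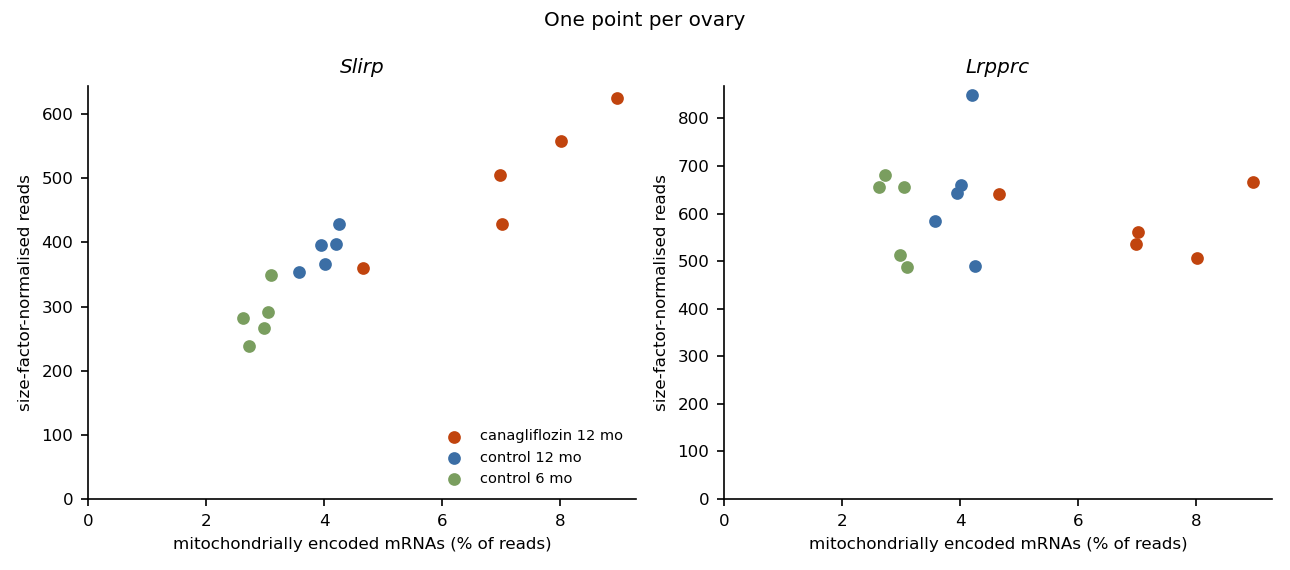
Normalised reads of Slirp (left) and Lrpprc (right) against the share of all reads from the 13 mitochondrially encoded mRNAs, in percent, with 1 point per ovary and groups by colour. With the 3 groups together, Slirp (239 to 624) tends to be higher where the share (2.63 to 8.97%) is higher. The lowest Slirp and the lowest share are in different 6-month ovaries. Lrpprc, between 488 and 849.9, shows no such trend.

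Within groups, Slirp was high in the same ovaries as the mitochondrially encoded mRNAs. After group means were removed, its correlation with the log2 share of those mRNAs was r 0.85 (permutation p = 0.000380) and rho 0.81 (permutation p = 0.00162) over 15 ovaries, and r 0.67 without the 2 ovaries farthest from the median of Slirp, canagliflozin replicates 1 and 5. Inside the groups r was 0.94 for canagliflozin, 0.83 for 12-month controls and 0.61 for 6-month controls, over 5 ovaries each. Over so few ovaries r was large in either direction for other factors too. Tfam gave -0.94 in 12-month controls and 0.81 in 6-month controls, and Supv3l1 gave 0.79 in 6-month controls. The relation of Slirp to the share was looked at after the values had been seen, as 1 of 10. Slirp was singled out because it had the highest r over the 15 ovaries. Over the 17556 tested genes that the mitochondrial genome does not encode, 23 (0.131%) had an r at or above that of Slirp, and the median r was -0.02. In a limma fit of all these genes, with group and share as terms, Slirp changed by 0.85 on the log2 scale for each doubling of the share (SE 0.18), with an adjusted p of 0.106 (0.000307 before adjustment, where 15.7% of genes were under 0.05). None of the 10 factors passed in that fit, against 0.0456% of genes (8 genes), and the other 9 had adjusted p from 0.447 to 0.954.

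Of the other 9, Polrmt gave r 0.48 (permutation p = 0.228) and rho 0.19 (p = 0.546), Supv3l1 r 0.45 (permutation p = 0.137) and rho 0.54 (p = 0.0489), and Tfam r -0.39 (permutation p = 0.343) and rho -0.44 (p = 0.163). Lrpprc, the partner of Slirp, gave r -0.16 (permutation p = 0.540) and rho -0.24 (p = 0.403). The libraries also differed in a trend with transcript length. The median deviation of the fifth of genes lowest in transcript length, less that of the fifth highest in it, was -0.05 to 0.27 (log2) in canagliflozin libraries, -0.14 to 0.20 in 12-month controls and -0.21 to 0.07 in 6-month controls, so that the groups overlap. Within each group the ovary lowest in this length index was also the lowest in Slirp. In 12-month controls both put the 5 ovaries in the same order. The highest ovary was the same for both in each control group but not with canagliflozin. With lengths and GC content of the median coding transcript taken out, r for Slirp was 0.83, and 40 genes (0.228%) were at or above it. The slope of Slirp on the share was then 0.69 (adjusted p = 0.135, limma), and 0.98 (adjusted p = 0.131, limma) with the principal transcript.

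Around the 10 factors, a wider list held 70 other nuclear genes of mitochondrial DNA replication and maintenance (16), nucleotide supply (8), RNA elongation, processing and decay (27) and RNA modification (19). All 70 were tested. With canagliflozin against 12-month controls 0 of the 70 passed in limma, against 0.00569% of all genes, and 0 in edgeR and in DESeq2. A total of 2 had an unadjusted p under 0.05, against 9.2% of all genes, and the median log2 fold change was -0.01, with 32 genes above 0 and 38 below. The members with the smallest p were Ssbp1, the single-stranded DNA binding protein (513 ± 51.3 in canagliflozin ovaries and 446 ± 35.8 in controls, adjusted p = 0.542), and Nsun2, an RNA methyltransferase (911 ± 53.2 in canagliflozin ovaries and 1019 ± 55.2 in controls, adjusted p = 0.542).

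At 12 against 6 months, 1 of the 70 rose, 4 fell and 65 did not pass, against 12.4% of all genes called (5.4% higher, 7.01% lower). Slc25a36, a carrier of pyrimidine nucleotides, rose to 1697 ± 143 normalised reads at 12 months, against 1092 ± 91.3 at 6 months (log2 fold change 0.64, adjusted p = 0.000511, limma). Ptcd1 and Grsf1, both RNA-binding proteins of mitochondrial RNA processing, fell by 0.39 and by 0.25 on the log2 scale (adjusted p = 0.00871 and 0.0447). Prorp, the nuclease subunit of mitochondrial RNase P, fell by 0.38 (adjusted p = 0.0284), and Clpx, the unfoldase of a matrix protease, fell by 0.29 (adjusted p = 0.0320). With the length and GC correction the Ptcd1 call ends, at -0.20 (adjusted p = 0.132), and the other 4 still pass, Slc25a36 at 0.42 with the median coding transcript. The other 3 that fell do not pass with edgeR on the 12 libraries where reads are recovered most surely (adjusted p 0.0667 to 0.0696), nor do Clpx and Grsf1 with no filter (0.0550 and 0.0752) or Grsf1 with mitochondrial genes left out of the scaling (0.0777). The calls of Slc25a36 and Ptcd1 hold with any 1 library left out. That of Grsf1 ends without any 1 of the 10 control libraries or without canagliflozin replicate 3 (adjusted p 0.0519 to 0.106), that of Prorp without replicate 1, 3 or 4 of the 12-month or replicate 1, 2, 3 or 5 of the 6-month controls (0.0525 to 0.0736), and that of Clpx without 12-month control replicate 2 or 3 or any 6-month control (0.0528 to 0.0737). The median over the 70 was 0.02.

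With canagliflozin against 6-month controls 8 of the 70 rose, 8 fell and 54 did not pass. Slc25a36 rose by 0.69, Ssbp1 by 0.49 and Angel2 by 0.39 on the log2 scale, and Ptcd1 fell by 0.45, Grsf1 by 0.39 and Clpx by 0.33, with adjusted p between 0.000108 and 0.00740 (limma). The Clpx call ends with edgeR on the 12 libraries, at -0.26 (adjusted p = 0.0786). With the length and GC correction Ptcd1 gave -0.29 (adjusted p = 0.0166), and with the median coding transcript Ssbp1 gave 0.26 (0.0370). The median was -0.02, and 16 of 70 were called, beside 28.4% of all genes.

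**Figure D4:**
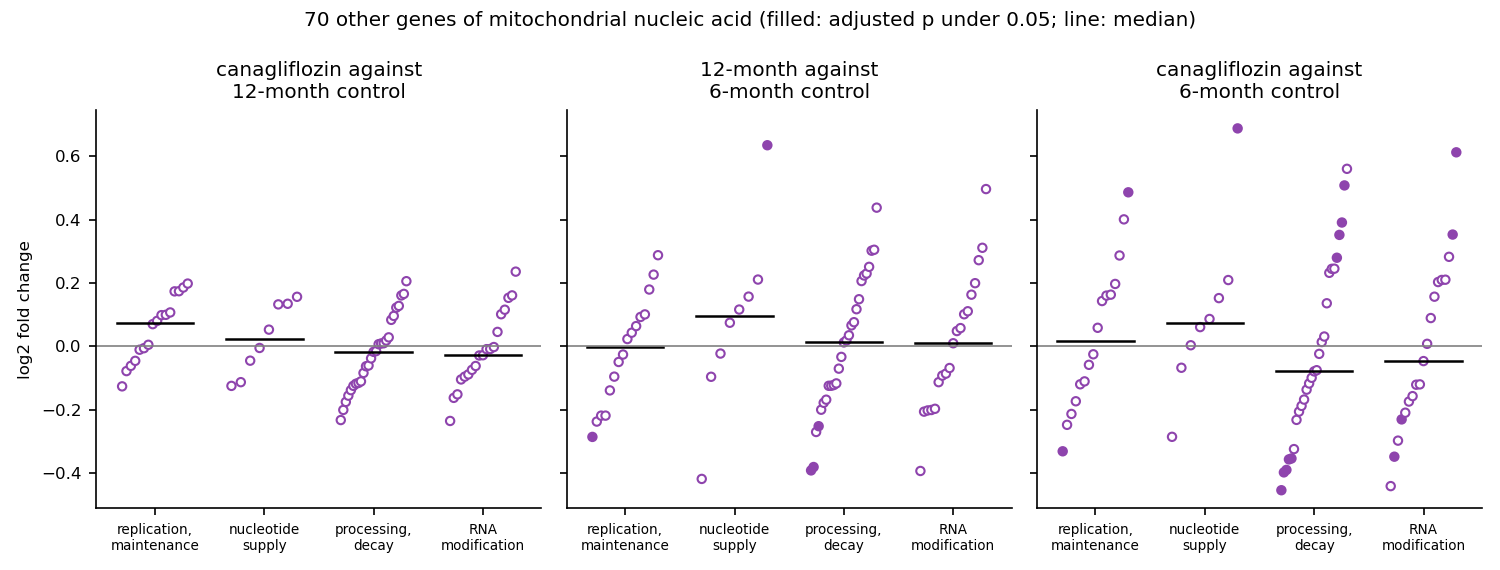
Log2 fold change of the 70 other genes in the 3 comparisons, by role, with 1 point per gene ordered by its value, a black line at the median of each role and filled points for an adjusted p under 0.05. In the left panel (canagliflozin against 12-month control) all points are open and lie between -0.24 and 0.24.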

How the data were processed

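Polyadenylated RNA of 15 ovaries was sequenced with a directional kit, per the labels' protocols. The deposited unit is a signal: judged from its low values, the authors scaled each library's reads by a size factor. The submitters' processing notes name Partek 11.0 and build mm39. Not given in the sources used here are the aligner, counter, annotation, strand setting and scaling method. Reads were recovered from the steps in the values. For 6-month control replicate 5 and for canagliflozin replicates 4 and 5 the step is within 1% of 1, so recovery is less certain there. The depth stated in the labels is far below the recovered 8.47 to 13.6 M reads. Mice, not runs, are the replicates. RNA extraction is described for the 12-month mice only, and no batch is named.

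All 15 libraries entered 1 limma 3.58.1 fit (R 4.3.3, trend and robust options) on log2(value + 1), which understates the change of low genes. The filter asked for 10 or more in 5 or more libraries, which 17569 genes passed and 7087 did not, with Benjamini-Hochberg adjustment over all of them and a threshold of 0.05. Intervals are 95%. Correlations used 100000 two-sided permutations within groups. The fits were tested on simulated data. Alternatives were other pseudocounts, filters and scalings, edgeR 4.0.16 and DESeq2 1.42.0 on recovered reads, 2 groups alone, a replicate block, a length and GC correction, an adjusted p of 0.1 and each library left out. The slope on the mitochondrially encoded share, edgeR on the 12 libraries with clear steps and the correction by the median coding transcript were added after seeing the data. Transcript lengths, overlaps and copies come from GENCODE M21 (build GRCm38), matched by gene identifier, and its coordinates, used only to find overlaps within it, are not printed.

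The 10 factors and all gene lists were chosen with earlier results of these data known. All 10 are named, and of the wider list the up to 3 genes with the smallest p in each role and comparison could be named. Prorp is listed in the table under its older symbol 1110008L16Rik. Other marker lists were summed in normalised reads. In canagliflozin libraries the sums were 3429 to 5338 for endothelium, 6064 to 9892 for theca and stroma, 277 to 705 for fat cells and 1457 to 7442 for red cells. In 12-month controls they were 3583 to 4269 for endothelium, 6903 to 15125 for theca and stroma, 269 to 995 for fat cells and 168 to 18087 for red cells. In 6-month controls they were 4232 to 4649 for endothelium, 8265 to 9553 for theca and stroma, 253 to 505 for fat cells and 738 to 2319 for red cells.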

Additional observations from a re-analysis of the deposited data

Results flagged for a closer look

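Supv3l1, the helicase of the RNA degradation pair, stood out in 1 canagliflozin ovary. Replicate 1 had 302 normalised reads, while the other 4 canagliflozin ovaries had 241 to 252. The gap to the nearest ovary is 0.820 of the group's whole range, above the limit for 5 samples. Chance alone passes that limit in about 1 in 20 sets, and 39 sets were examined here. The same ovary had the highest share of mitochondrially encoded mRNAs (8.97%) and the highest Slirp (624).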

How the results depend on the processing

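In no alternative run did canagliflozin against 12-month controls call a member of the 10 factors or of the wider list. No called value changed sign. For 12 against 6 months the count of factors called, 1 in the report, was 0 with no filter and with the length and GC correction, and 2 with a filter of 50, with only 2 groups, with DESeq2 and at an adjusted p under 0.1. Leaving out 1 library gave 0 to 2 factors. The wider list, 5 in that comparison, gave 3 with no filter, 2 with edgeR on 12 libraries, 8 with the length and GC correction, 9 with the median coding transcript and 2 to 6 with 1 library left out. For canagliflozin against 6 months the factors, 3 in the report, fell to 1 with the length and GC correction. They were 4 with a filter of 50, with mitochondrial genes left out of the scaling and with DESeq2, and 2 to 4 with 1 library left out. The wider list, 16, ran from 8 to 20 with 1 library left out and from 11 to 23 in the other alternatives. The slope on the mitochondrially encoded share called 0 factors, and 0 to 1 with 1 library left out, the 1 being Slirp without canagliflozin replicate 2 (adjusted p = 0.0429). The cause of these moves was not tested.

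No pairing of mice by replicate number was seen, though it is not excluded. The 15 same-numbered pairs correlated at -0.30 to 0.25, beside -0.43 to 0.38 for pairs of different numbers. With a replicate block the counts of factors stayed at 0, 1 and 3 for drug, age and both, and the wider list gave 3 in place of 5 for age.

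Depth limits Tfb1m most, with 43 to 112 reads per library, and 5 mice per group left intervals of the fold as wide as 0.788 to 1.38 for it. Factors that missed in the fit with the mitochondrially encoded share are not shown to be unrelated to it.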
